A study of Drosophila melanogaster with 4 samples.

Results

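The 37 genes described here encode parts of the synapse, ion channels that make cells excitable, and proteins used as marks of neurons. They were picked by name from a table of 17559 genes: SNARE proteins and their cofactors, synaptotagmins, active zone proteins, sodium and potassium channels, enzymes of cyclic nucleotide signalling, the ELAV family and the microtubule protein Futsch. RNA came from wing imaginal discs of Drosophila melanogaster at the third larval instar, in 2 libraries of Paip1 mutant larvae and 2 libraries of y w control larvae. Which Paip1 allele was used, and in what background, is not in the labels, so effects of strain and of the mutation cannot be told apart. Paip1, which binds poly(A)-binding protein, stood at 2.37 and 2.22 TPM in the mutant libraries and at 112 and 121 TPM in the control libraries. TPM is the length-corrected share of transcripts in a library, so levels of different genes can be compared on it.

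Neurons release transmitter when a calcium channel opens at the active zone and synaptotagmin triggers fusion of vesicles by SNARE proteins. A vesicle SNARE, synaptobrevin, pairs with syntaxin and a SNAP-25 type protein on the plasma membrane, and paralogues of each serve membrane traffic in other cells. Voltage-gated sodium and potassium channels carry the electrical signal, and cyclic AMP and cyclic GMP enzymes tune it. The wing disc is mostly an undifferentiated epithelium with few neurons at this stage.

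The members differed widely in level and in the size of their difference. By order alone, both mutant libraries lay above both control libraries for 26 of the 37 members (70.3%, against 23.6% of all genes in the table). They lay below for 5, against 27.9% of all genes, and the groups overlapped for 6. Genes at 0 in every library cannot separate and so lower the shares of all genes. In some library 13667 of the 17559 genes were above 0, as were 36 of the 37 members. In mutant discs 8 genes that passed a filter on low values stood 11.6 to 639 times above control discs by the ratio of mean TPM: Snap25, for, rut, unc-13, Teh1, Ac78C, Syt4 and cac. The potassium channel gene sand was the opposite, at 0.20 TPM in both mutant libraries and at 28.88 and 18.72 TPM in the control libraries. The broadly used SNARE genes Syb and Snap24 and the syntaxin-binding gene Rop stood at 0.893, 0.858 and 0.886 times the control mean, and the presynaptic genes brp, Rim, cpx and nSyb stayed under 1 TPM in every library. The 8 genes together held 1.72% and 1.36% of the listed TPM in the mutant libraries and 0.0173% and 0.0151% in the control libraries, while the other members summed to 375 and 405 TPM in the mutant libraries and 433 and 445 TPM in the control libraries.

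A limma fit over all genes placed 20 of the 37 members above its filter of 1 TPM in at least 2 libraries. It called 10 of these higher in the mutant, where 15.6% of all tested genes were called higher, and 2 lower, where 29.1% were called lower (44.8% in either direction). The threshold was a Benjamini-Hochberg adjusted p under 0.05. The list was drawn up with results of this comparison known, so these counts are a description and no p-value is given for a single member. The filter was passed through mutant libraries alone by Syt4, cac and Shal and through control libraries alone by sand, which made a difference in these 4 necessary. The median log2 fold change was 0.75 over the 20 tested members and -0.22 over all tested genes. With TPM rescaled by median ratios the median over all genes was -0.06, 11 members were called higher and 1 lower, and higher genes made up 49.8% of all calls, against 34.9% as deposited. In bulk tissue, fewer cells of a type and less RNA per cell cannot be told apart. Calls of 9 members (the 8 above and sand) held in all 10 alternative settings, and those of para, Shal and elav did not. Over all tested genes, too, calls in both directions became fewer whichever library was left out.

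**Figure D1:**
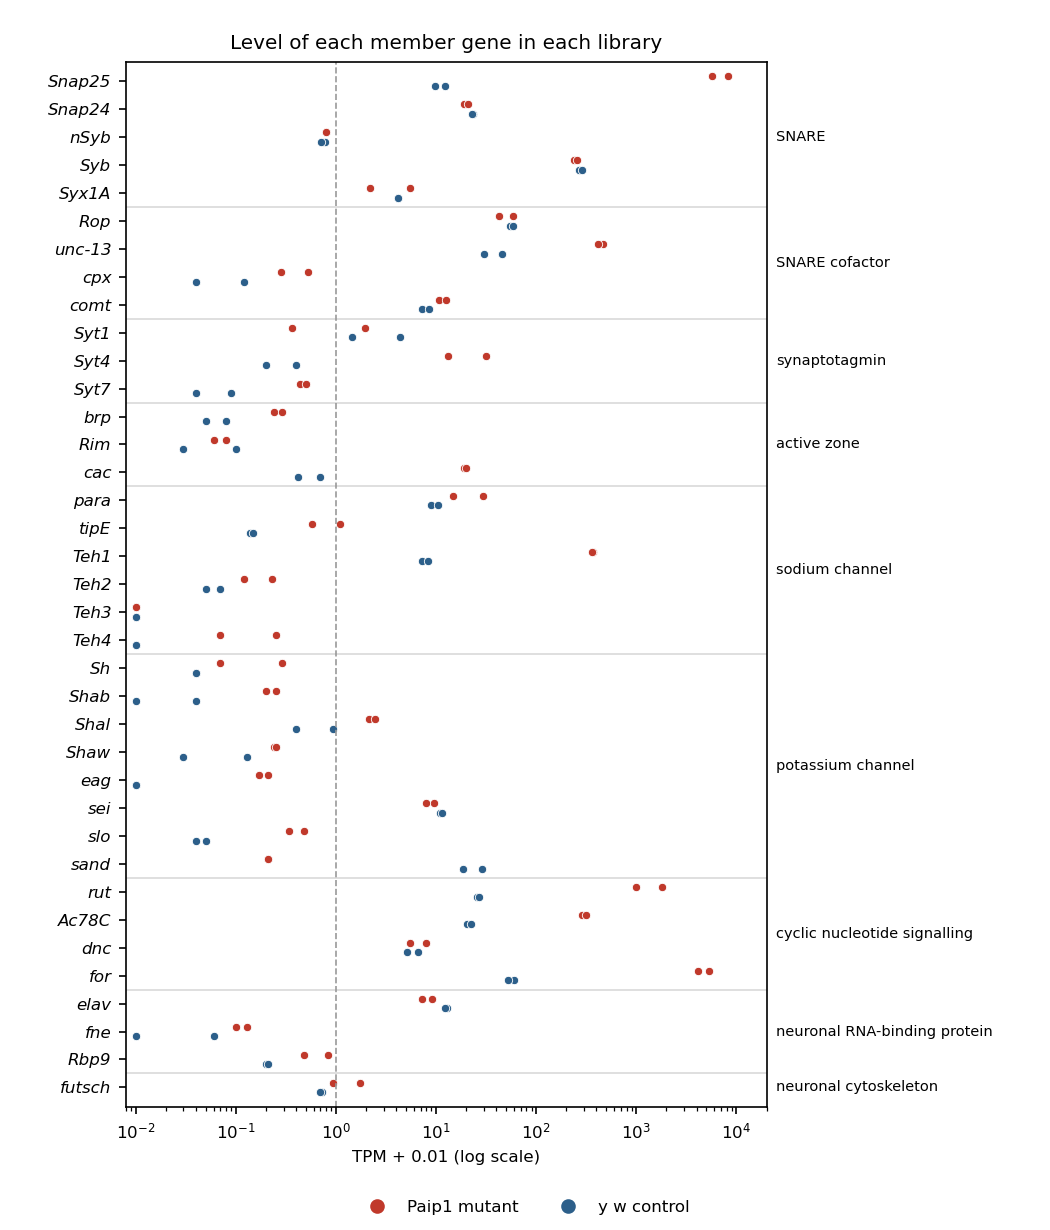
TPM of each of the 37 member genes in each library on a log scale, after adding 0.01 so that genes listed at 0 can be drawn. Red points are the 2 Paip1 mutant libraries and blue points the 2 y w control libraries. The dashed line marks 1 TPM. Snap25, for and rut lie farthest right in the mutant, while brp, Rim, cpx and nSyb lie below 1 TPM in all 4 libraries.

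Among the SNARE genes, Snap25 carried nearly all of the difference. Snap25, the SNAP-25 type SNARE of the synapse, stood at 8313.88 and 5650.04 TPM in the mutant libraries, against 12.2 and 9.66 TPM in the control libraries. The ratio of means was 639 (log2 fold change 9.17, SE 0.22, on the log2(TPM + 1) scale used for every log2 fold change of the fit). By mean level it ranked 7 of 17559 genes in the mutant and 6237 in the control. Its paralogue Snap24 was at 19.23 and 20.67 TPM in the mutant libraries and at 23.52 and 22.97 TPM in the control libraries (log2 fold change -0.21, SE 0.11, not called). Snap25 thus stood at 432 and 273 times the level of Snap24 in the mutant libraries and at 0.519 and 0.421 times it in the control libraries.

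The partners of Snap25 in the neuronal SNARE complex did not share its level. Syx1A, the plasma membrane syntaxin of neurons, was at 2.17 and 5.46 TPM in the mutant libraries and at 4.16 and 4.20 TPM in the control libraries (log2 fold change -0.19, SE 0.35). The mutant libraries lay on either side of the control libraries. Syx1A shares 447 exonic bases with eIF4EHP on the same strand, so the division of reads between these genes is uncertain. The vesicle SNARE nSyb, made mainly in neurons, was between 0.70 and 0.79 TPM in all libraries and was below the filter. Syb, its broadly made paralogue, was at 237.8 and 258.45 TPM in the mutant libraries and at 268.37 and 287.49 TPM in the control libraries (log2 fold change -0.16, SE 0.11, not called), and its log2 fold change was 0.01 under median-ratio scaling. nSyb stood at 0.00328 and 0.00306 times the level of Syb in the mutant libraries and at 0.00283 and 0.00243 times it in the control libraries.

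Of the proteins that act on SNAREs, unc-13, which primes vesicles for fusion, was the one with a large difference. It was at 465.43 and 411.61 TPM in the mutant libraries and at 45.5 and 30.18 TPM in the control libraries, a ratio of means of 11.6 (log2 fold change 3.53, SE 0.21). The groups did not overlap. The exons of unc-13 on chromosome 4 overlap 3 annotated genes on the opposite strand and 1435 bases of annotated transposons. Of those genes, the pseudogene CR43361 shares 1463 bases with unc-13 and was at 65.46 and 32.7 TPM in the mutant libraries and at 24.86 and 33.67 TPM in the control libraries, with overlapping groups. The antisense RNA CR44029 shares 705 bases and was at 49.39 and 27.26 TPM in the mutant libraries and at 13.13 and 10.62 TPM in the control libraries, and reads of overlapping strands cannot be told apart here.

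Rop, the Sec1 family partner of syntaxin, was at 42.7 and 58.36 TPM in the mutant libraries and at 55.08 and 59.0 TPM in the control libraries, and the groups overlapped. comt, the NSF ATPase that takes used SNARE complexes apart, was at 10.58 and 12.53 TPM in the mutant libraries and at 7.24 and 8.59 TPM in the control libraries (log2 fold change 0.49, SE 0.16). The limma fit did not call comt on TPM as deposited, but called it higher under median-ratio scaling (log2 fold change 0.65), a common sum (0.59) and the replicate block. cpx, the complexin that clamps fusion, was at 0.27 and 0.52 TPM in the mutant libraries and at 0.03 and 0.11 TPM in the control libraries, below the filter.

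Of the synaptotagmins, Syt4 had the largest difference. Syt4, which is known in the fly for signalling from muscle back to the motor neuron, was at 13.07 and 31.86 TPM in the mutant libraries and at 0.39 and 0.19 TPM in the control libraries, a ratio of means of 77.5 (log2 fold change 4.06, SE 0.41). The mutant libraries differed from each other and both lay far above the control libraries. Syt1, the calcium sensor of fast release, was at 1.93 and 0.35 TPM in the mutant libraries and at 4.31 and 1.45 TPM in the control libraries, with overlap and no call (log2 fold change -0.86, SE 0.53), and was called lower with the replicate block. Syt7, another calcium-binding synaptotagmin, was at 0.43 and 0.49 TPM in the mutant libraries and at 0.08 and 0.03 TPM in the control libraries, below the filter.

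At the active zone, cac, the pore-forming subunit of the presynaptic calcium channel, was at 18.92 and 19.98 TPM in the mutant libraries and at 0.41 and 0.68 TPM in the control libraries (log2 fold change 3.73, SE 0.17, ratio of means 35.7). The scaffold proteins that hold this channel at release sites were close to 0: brp was at 0.23 and 0.28 TPM in the mutant libraries and at 0.07 and 0.04 TPM in the control libraries, and Rim at 0.07 and 0.05 TPM in the mutant libraries and at 0.09 and 0.02 TPM in the control libraries. The channel gene was thus measured beside scaffold genes at or below 0.28 TPM.

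In the sodium channel group, 1 auxiliary gene stood apart from the channel itself and from its relatives. Teh1, a homologue of the auxiliary subunit TipE, was at 367.37 and 358.2 TPM in the mutant libraries and at 7.15 and 8.21 TPM in the control libraries, a ratio of means of 47.2 (log2 fold change 5.39, SE 0.12). para, the pore-forming subunit of the voltage-gated sodium channel, was at 29.5 and 14.69 TPM in the mutant libraries and at 8.91 and 10.5 TPM in the control libraries (log2 fold change 1.04, SE 0.32). The call of para was lost without control replicate 1 (log2 fold change 0.93), without control replicate 2 (1.14) and without mutant replicate 1 (0.56), and at a pseudocount of 0.1 (1.10), with no filter and with no variance trend. Teh1 stood at 12.5 and 24.4 times the level of para in the mutant libraries and at 0.802 and 0.782 times it in the control libraries. tipE reached 1.10 TPM in 1 mutant library, Teh2 and Teh4 stayed at or below 0.24 TPM, and Teh3 was listed at 0 in all 4 libraries. The genes tipE, Teh2, Teh3 and Teh4 lie beside each other on 3L, whereas Teh1 lies on 3R.

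Of the 8 potassium channel genes 3 were tested. sand, whose channel is known in flies for its part in sleep, was at 0.20 and 0.20 TPM in the mutant libraries and at 28.88 and 18.72 TPM in the control libraries, and its ratio of means was 0.00840 (log2 fold change -4.34, SE 0.24). It was the only member called lower in every setting tried. Shal, a transient potassium channel, was at 2.13 and 2.46 TPM in the mutant libraries and at 0.39 and 0.93 TPM in the control libraries (log2 fold change 1.01, SE 0.27). Its call was lost without control replicate 1 (0.77), control replicate 2 (1.24), mutant replicate 1 (1.08) or mutant replicate 2 (0.93), and with no filter.

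sei, the fly ERG type channel, was at 9.56 and 7.92 TPM in the mutant libraries and at 10.9 and 11.59 TPM in the control libraries (log2 fold change -0.33, SE 0.14, not called). Its exons overlap those of gammaSnap1 and ppk29 on the opposite strand. Sh, Shab, Shaw, eag and slo, the classical voltage-gated and calcium-gated channels, ranged up to 0.47 TPM, and eag was listed at 0 in both control libraries.

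Enzymes of cyclic nucleotide signalling held 3 of the highest levels. for, the cyclic GMP-dependent protein kinase known for foraging behaviour, was at 5322.41 and 4160.1 TPM in the mutant libraries and at 60.35 and 52.38 TPM in the control libraries, a ratio of means of 84.1 (log2 fold change 6.36, SE 0.16). rut, the calcium-responsive adenylyl cyclase required for olfactory learning, was at 992.29 and 1809.86 TPM in the mutant libraries and at 25.92 and 26.71 TPM in the control libraries, a ratio of means of 53.2 (log2 fold change 5.62, SE 0.28). Ac78C, another adenylyl cyclase, was at 290 and 312.29 TPM in the mutant libraries and at 20.23 and 22.41 TPM in the control libraries, a ratio of means of 14.1 (log2 fold change 3.76, SE 0.11). For all 3 genes the groups were far apart, and the mutant libraries lay close to each other for Ac78C and farther apart for rut. dnc, the phosphodiesterase that breaks down cyclic AMP and acts against rut, was at 5.52 and 8.02 TPM in the mutant libraries and at 6.6 and 5.11 TPM in the control libraries, with overlapping groups (log2 fold change 0.17, SE 0.22). The rut transcript was thus at 180 and 226 times the level of dnc in the mutant libraries and at 3.93 and 5.23 times it in the control libraries.

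The RNA-binding and cytoskeletal marks of neurons were low or moderate in level and differed in direction. elav, an RNA-binding protein used as a mark of neurons, was at 7.24 and 9.06 TPM in the mutant libraries and at 12.83 and 12.33 TPM in the control libraries (log2 fold change -0.58, SE 0.15), and both mutant libraries were lower. The limma fit called elav lower on TPM as deposited, but not under median-ratio scaling (log2 fold change -0.42) or with no filter. Nor was elav called without either control replicate (-0.55 and -0.60) or without mutant replicate 1 (-0.43). Its relative Rbp9 was at 0.83 and 0.47 TPM in the mutant libraries and at 0.19 and 0.20 TPM in the control libraries, and fne at 0.09 and 0.12 TPM in the mutant libraries and at 0.05 and 0 TPM in the control libraries, both below the filter. futsch, a microtubule-associated protein of axons, was at 0.93 and 1.74 TPM in the mutant libraries and at 0.72 and 0.69 TPM in the control libraries, below the filter. Of the 17 members below the filter, 16 were above 0 in some library, and in 15 of these both mutant libraries lay above both control libraries, as they did in 39.1% of all untested genes above 0. None of these 17 exceeded 1.74 TPM.

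The authors' deposited table, which holds fold changes from their own comparison, marked 19 members as significantly up and 1, sand, as down. Of all genes with a result in it, 10.5% were marked up and 3.56% down. The smallest absolute log2 fold change among marked genes was 1.00, whereas calls of the limma fit had no bound on fold change. elav and comt, with deposited log2 fold changes of -0.44 and 0.71, were not marked. Marks of the authors' table reached down to members below the filter used here, 9 of the 19, such as slo and brp. For most tested members its log2 fold change and the log2 ratio of mean TPM lay close: for Teh1 they were 5.73 and 5.56, and for cac 5.30 and 5.16. Over 8531 tested genes the TPM ratio minus the deposited value had a median of -0.17, with -0.25 and -0.10 as the bounds that left out the lowest and highest 5% of genes. rut was far outside this range, with a deposited log2 fold change of 3.79 against a log2 TPM ratio of 5.73, and for, Snap25, dnc and Syt4 differed in the same direction by 0.91, 0.76, 0.43 and 0.34. Syt1 differed the other way (-0.44). For dnc the sign itself differed, with -0.22 in the authors' deposited table and 0.21 by TPM. The sign also differed for Syb (0.02 deposited and -0.16 by TPM) and Syx1A (0.04 and -0.13), whose differences lay within the range of most genes. The size of the rut difference is thus 13.8-fold in the authors' deposited table and 53.2-fold by TPM, and both put it higher in the mutant.

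**Figure D2:**
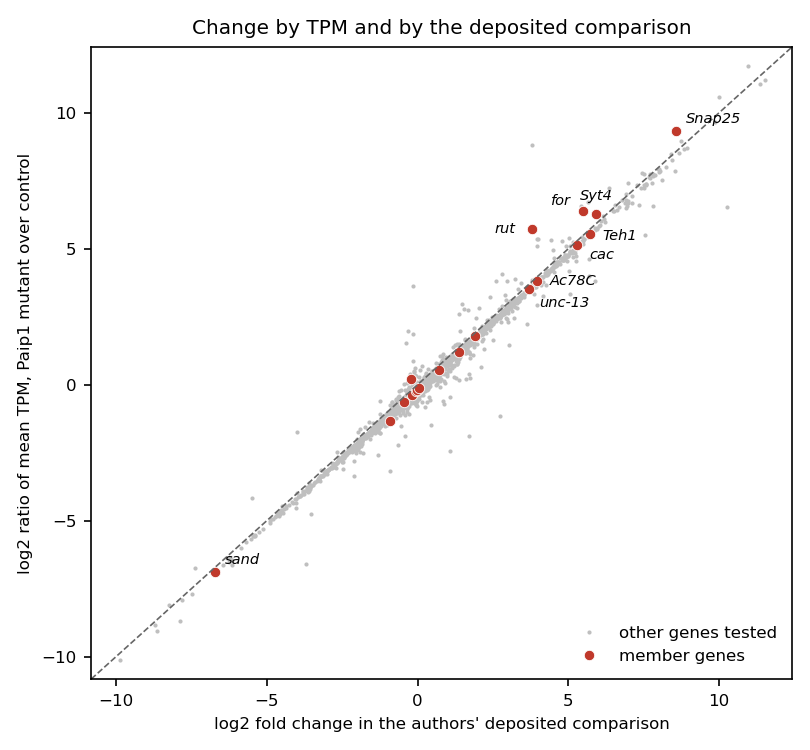
Log2 ratio of mean TPM, Paip1 mutant over control, against the log2 fold change in the authors' deposited table, 1 point per tested gene above 0 in both groups, with the members in red. The dashed line marks equal values. rut lies 1.95 above its deposited value, whereas Teh1, cac, Ac78C and unc-13 lie just below the line with most genes.

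Other genes of the same processes, outside the 37, are read against the 15.6% called higher and 29.1% called lower among all tested genes. Those shares also shrank whichever library was left out, so calls lost that way are not particular to these lists. Of 47 other synaptic genes 24 were tested, and 7 rose (29.2%) and 8 fell (33.3%), with a median log2 fold change of -0.20. Of these 24, 4 passed the filter through the mutant libraries alone and so had to differ, Cadps and Nlg1 among them, and no p is given for such genes. Cadps, which acts in release of dense-core vesicles, was at 5.85 and 4.52 TPM in the mutant libraries and at 0.70 and 0.88 TPM in the control libraries. Nlg1, a postsynaptic adhesion protein, was at 11.05 and 4.76 TPM in the mutant libraries and at 0.77 and 0.73 TPM in the control libraries (log2 fold change 2.25), which was no longer called when control replicate 1 (2.27) or 2 (2.23) was left out. Esyt2, a protein of membrane contact sites, rose (log2 fold change 1.53, adjusted p = 0.00906 by limma, as below, and 0.0668 without control replicate 1 and 0.055 without mutant replicate 1). Amph, a membrane-shaping BAR protein, fell to 7.07 and 9.52 TPM in the mutant libraries, against 20.31 and 19.88 TPM in the control libraries (log2 fold change -1.19, adjusted p = 0.00565, and 0.0552 and 0.0512 without control replicates 1 and 2). With either control replicate left out, 2 of the list were called higher and 0 lower. Without mutant replicate 1 the numbers were 2 and 1, and without mutant replicate 2 they were 4 and 8.

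Of 48 other ion channel genes 23 were tested, 7 rose (30.4%) and 5 fell (21.7%), and 3 passed the filter through the mutant libraries alone. One of these 3 was na, the sodium leak channel, at 13.62 and 19.74 TPM in the mutant libraries and at 0.07 and 0.08 TPM in the control libraries. rpk, a channel of the degenerin and ENaC family, rose to 27.9 and 27.31 TPM in the mutant libraries, against 8.61 and 9.21 TPM in the control libraries (log2 fold change 1.53, adjusted p = 0.000964). Piezo, a mechanosensitive channel, rose too (log2 fold change 1.17, adjusted p = 0.002), as did the chloride channel gene Best1 (log2 fold change 1.05, adjusted p = 0.00499, and 0.0539 without control replicate 2). The numbers higher and lower were 4 and 1 without control replicate 1, and 3 and 0 without control replicate 2. Without mutant replicate 1 they were 7 and 1, and without mutant replicate 2 they were 7 and 3.

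Transmitter receptors were scarce: 6 of 44 passed the filter, and 5 were called higher and 0 lower. The 4 named here passed through the mutant libraries alone and so had to differ, which leaves the count without weight. The glutamate receptor subunit gene Nmdar2 was at 3.44 and 5.38 TPM in the mutant libraries and at 0.05 and 0.04 TPM in the control libraries. The nicotinic receptor subunit gene nAChRbeta3 was at 4.59 and 3.80 TPM in the mutant libraries and at 0.06 and 0.90 TPM in the control libraries, and nAChRalpha4 at 1.34 and 1.53 TPM in the mutant libraries and at 0.27 and 0.11 TPM in the control libraries. Oct-TyrR, a receptor for octopamine and tyramine, was at 1.02 and 1.22 TPM in the mutant libraries and at 0.01 and 0.02 TPM in the control libraries. The list had 2 genes called higher without mutant replicate 1 or either control replicate, and 3 without mutant replicate 2.

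Of 30 other genes of cyclic nucleotide signalling 15 were tested, and 6 fell (40.0%), 1 rose (6.67%) and 8 were not called, with a median log2 fold change of -0.46. Of the 15 untested, 14 were above 0 in some library, and 9 lay above the control libraries in both mutant libraries and 0 below. Over all untested genes above 0 the share above was 39.1%. The untested genes of the other 3 lists leaned the same way. The numbers above and below were 17 and 2 of 23 synaptic genes, 18 and 0 of 25 ion channel genes and 26 and 2 of 38 receptor genes. The share of all untested genes that lay below was not counted, so the numbers below have no such measure beside them. Among genes of protein kinase A, 3 subunit genes fell, Pka-C3 was not called (log2 fold change -0.17) and Pka-C2 was listed at 0 in all libraries. The regulatory subunit gene Pka-R2 fell to 6.43 and 7.26 TPM in the mutant libraries, against 15.72 and 16.23 TPM in the control libraries (log2 fold change -1.12, SE 0.13, adjusted p = 0.00346). Pka-R1 (log2 fold change -0.68, adjusted p = 0.00827, and 0.0888 and 0.0781 without control replicates 1 and 2) and the catalytic subunit gene Pka-C1 (-0.73, adjusted p = 0.0182, and 0.112 and 0.116 without control replicates 1 and 2 and 0.0517 without mutant replicate 1) fell as well. The guanylyl cyclase gene Gyc89Da, which passed the filter through the mutant libraries alone, was at 2.87 and 2.07 TPM in the mutant libraries and at 0.24 and 0.32 TPM in the control libraries. Under median-ratio scaling 3 of the list were called lower, without mutant replicate 1 the number was 2, and without control replicate 1 or 2 it was 1, with 0 higher.

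**Figure D3:**
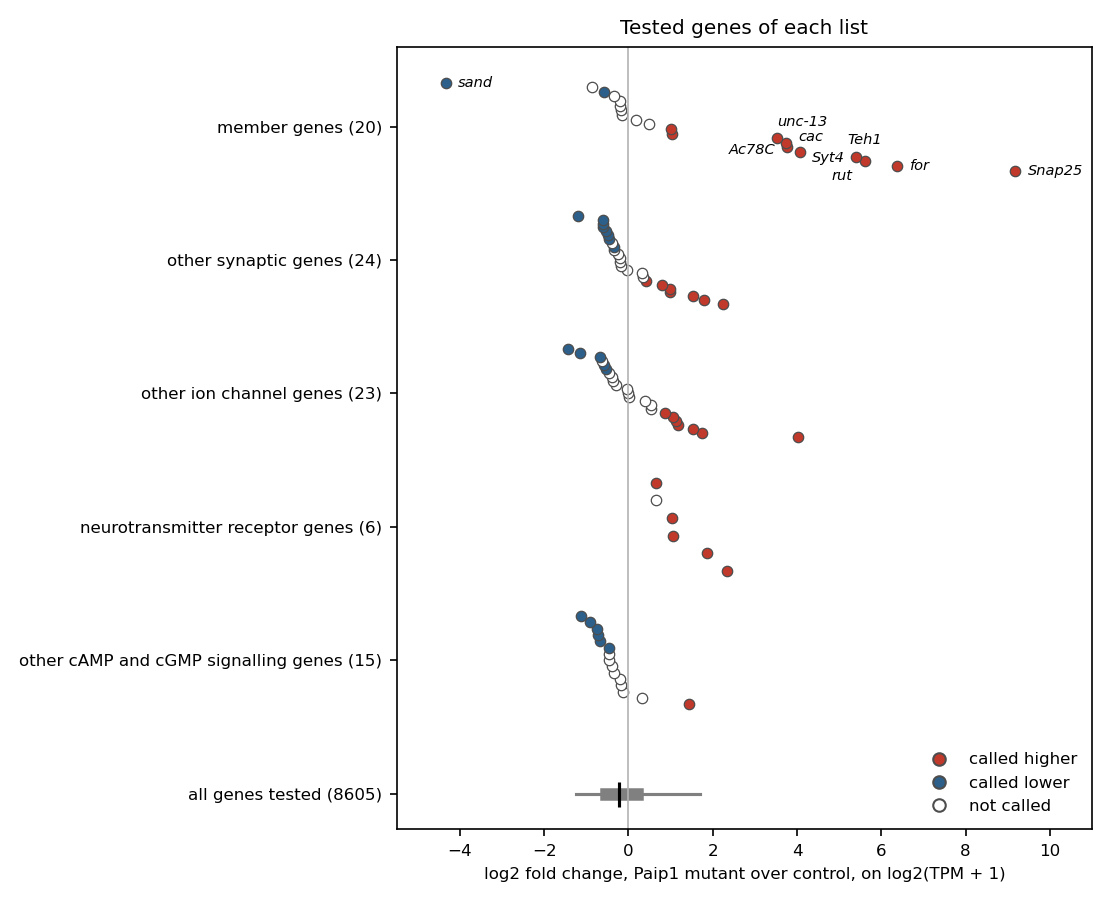
Log2 fold change on log2(TPM + 1), Paip1 mutant over control, of each tested gene in 5 lists, with red for called higher, blue for called lower and white for not called. The grey bar at the bottom runs from the lower to the upper quartile of all 8605 tested genes, its line leaves out the lowest and highest 5% and its black mark is the median of -0.22. The 8 labelled members at the right lie beyond every gene of the other lists except na.

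Markers of cell types that could add such transcripts were measured beside the members. Of 17 further neuron markers 4 were tested, and 2 rose and 1 fell. Their summed level was 34.4 and 15.4 TPM in the mutant libraries and 9.96 and 8.49 TPM in the control libraries. Of this sum, ple made up 11.64 and 1.00 TPM in the mutant libraries and 1.23 and 0.12 TPM in the control libraries. The groups overlapped for ple, and it was not called. Tdc2, of tyramine and octopamine neurons, was at 11.25 and 4.13 TPM in the mutant libraries and at 0.54 and 0.23 TPM in the control libraries, and the neural cadherin gene CadN at 3.44 and 4.05 TPM in the mutant libraries and at 6.75 and 6.45 TPM in the control libraries. Tdc2 passed the filter through the mutant libraries alone. Appl, the defining neuron marker and the other gene of this list called higher, also reached 1 TPM in a control library. It averaged 4.51 TPM in the mutant libraries and 1.07 TPM in the control libraries (log2 fold change 1.38, SE 0.27, adjusted p = 0.0144 by limma). The call of Appl was lost when either control replicate was left out. The call of CadN (adjusted p = 0.0223 by limma) was lost without control replicate 1 or 2 (0.133 and 0.12), without mutant replicate 1 (0.0718) and with no filter (0.0729). Of 14 sensory organ lineage markers 8 were tested, 2 rose and 4 fell. The proneural gene ac fell (log2 fold change -1.80, adjusted p = 0.0012). insc, which orients asymmetric divisions, rose to 29.38 and 27.71 TPM in the mutant libraries, against 3.72 and 2.72 TPM in the control libraries (log2 fold change 2.82, adjusted p = 0.000473). sens, which marks sensory organ precursors, was at 0.63 and 0.80 TPM in the mutant libraries and at 4.28 and 3.20 TPM in the control libraries. Sox15, also on that list, was not called (log2 fold change 0.14, adjusted p = 0.305, and 0.0356 under median-ratio scaling).

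Glial markers summed to 142 and 168 TPM in the mutant libraries and to 138 and 143 TPM in the control libraries, with 3 of 6 tested higher and 1 lower. Most of this was nrv2, which was not called, and without it the sum was 55.1 and 67.8 TPM in the mutant libraries and 29.2 and 26.7 TPM in the control libraries. repo, which defines most glia, was at 0.95 and 0.91 TPM in the mutant libraries and at 0.08 and 0.13 TPM in the control libraries. moody, of the blood-brain barrier glia, rose (log2 fold change 2.55, adjusted p = 0.000429). Of 21 muscle markers 16 were tested and all 16 were called higher, 7 of them genes that passed the filter through the mutant libraries alone. Without sls, the titin-like gene at 15295 and 15303 TPM in the mutant libraries and 158 and 160 TPM in the control libraries, the list summed to 324 and 229 TPM in the mutant libraries and to 31.4 and 49.0 TPM in the control libraries. Mhc, the muscle myosin, was at 13.4 and 5.80 TPM in the mutant libraries and at 0.22 and 0.65 TPM in the control libraries, and Act57B, a muscle actin, at 77.3 and 61.7 TPM in the mutant libraries and at 11.1 and 17.5 TPM in the control libraries.

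The photoreceptor rhodopsin gene ninaE did not exceed 0.06 TPM, and that list had 1 gene higher and 1, norpA, lower of 6 tested, with rdgA not called. The call of norpA (log2 fold change -1.18, adjusted p = 0.0346) was lost without any 1 library, with adjusted p from 0.0643 to 0.166, with no filter (0.0963) and under median-ratio scaling (0.0748). Hemocyte markers summed to 136 and 171 TPM in the mutant libraries and 142 and 129 TPM in the control libraries, with 3 of 8 tested higher, 2 of them having passed the filter through the mutant libraries alone. Without Ppn and crq, which were not called, the sum was 22.0 and 29.9 TPM in the mutant libraries and 2.08 and 16.6 TPM in the control libraries. Fat body markers varied within both groups, at 310 and 41.6 TPM in the mutant libraries and 1599 and 514 TPM in the control libraries, with 2 of 8 tested lower, Fbp1 among them (adjusted p = 0.0114, and 0.0728 and 0.0501 without control replicates 1 and 2). Lsp2 was not called (adjusted p = 0.0503, and 0.0468 without mutant replicate 1 and 0.00501 with the replicate block). The part of neurons, glia, muscle, hemocytes or fat body in the members' levels was not tested.

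**Figure D4:**
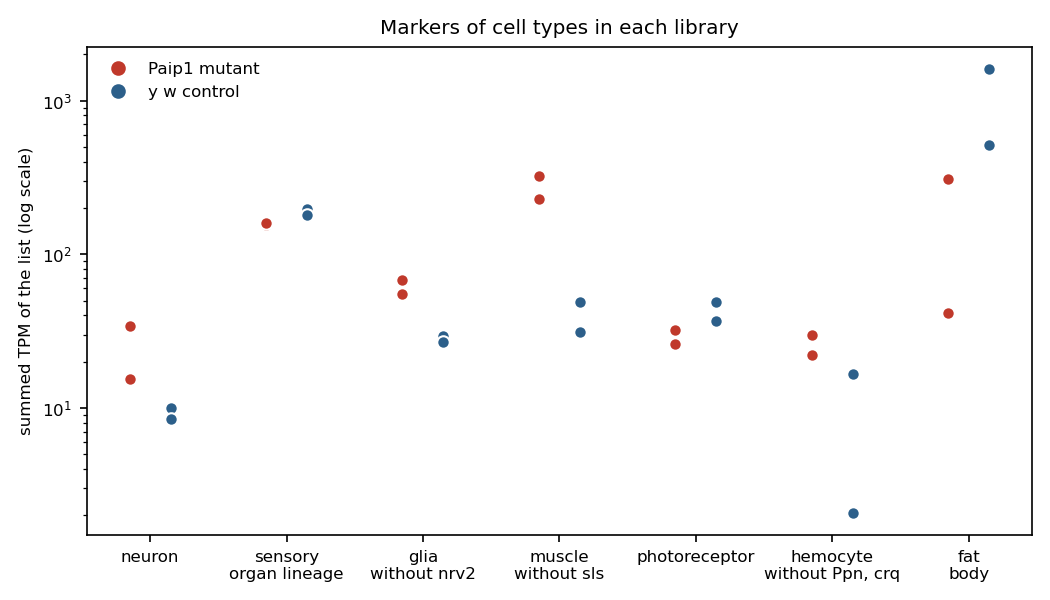
Summed TPM of each marker list per library on a log scale, Paip1 mutant in red and y w control in blue, with the most abundant genes sls, nrv2, and Ppn and crq left out of the muscle, glial and hemocyte lists. Muscle, neuron, glial and hemocyte markers lie higher in both mutant libraries, and sensory organ lineage, photoreceptor and fat body markers lower. The photoreceptor sums were 32.1 and 26.2 TPM in the mutant libraries and 49.0 and 36.8 TPM in the control libraries. They include norpA, the most abundant gene of that list, at 14.89 and 8.26 TPM in the mutant libraries and 32.88 and 21.4 TPM in the control libraries. The lower photoreceptor sum rests on norpA.

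Most members have a longer gene body than the median tested gene (34 of 37), and Snap24, Teh3 and Rop do not. Their median span from first to last annotated exon is 27653 bp, against 2683 bp over the tested genes, and the 8 high members range from 4745 bp for Syt4 to 225026 bp for Snap25. Snap25 lies on 3L from 24074180 to 24299205 (plus strand, dm6), its 2 annotated transcripts are 2233 bases long, and 11 annotated transposons lie in its introns. for lies on 2L from 3622074 to 3656953, rut on X from 14787478 to 14826073, and Ac78C on 3L from 21136447 to 21171930, all on the minus strand. Over all tested genes the share called higher was 13.9% for spans up to 5000 bp, 16.6% from there to 20000 bp, 25.2% from there to 50000 bp and 32.0% beyond. The share called lower was 27.3%, 34.4%, 33.7% and 25.4% in the same bins. Of the members 10 lie on X (27.0%, against 15.1% of annotated genes in the table), 10 on 3L and 2 on chromosome 4.

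Genes beside the 8 high members were called about as often as tested genes in general. Of their 48 neighbours, the 3 nearest tested genes on each side, 8 were called higher (16.7%, against 15.6% of all tested genes), 15 lower (31.2%, against 29.1%) and 25 were not called, and the median log2 fold change was -0.23. Of the 16 nearest, 4 were called higher and 4 lower. Ac78C lies 94 bp from CG10565 (log2 fold change 0.04) and 923 bp from chb (-0.28), neither of them called. for lies 501 bp from Ugt36A1 (log2 fold change -0.13, not called). Among the 8 neighbours called higher were gd, 67 bp from cac (log2 fold change 2.53), Gyf, 799 bp from unc-13 (1.43), Glut4EF, 6561 bp from Teh1 (1.44), and CG40470, 87770 bp from Snap25 (3.04). For Gyf the log2 ratio of mean TPM lay 1.89 above the log2 fold change in the authors' deposited table, a mismatch near that of rut. fd102C, 23295 bp from unc-13, averaged 28.3 TPM in the mutant libraries and was listed at 0 in both control libraries. Those called lower included CG16704, 35170 bp from for (log2 fold change -3.54), CR44334, 41529 bp from Syt4 (-2.43), and NetA, 133550 bp from rut (-1.94).

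**Figure D5:**
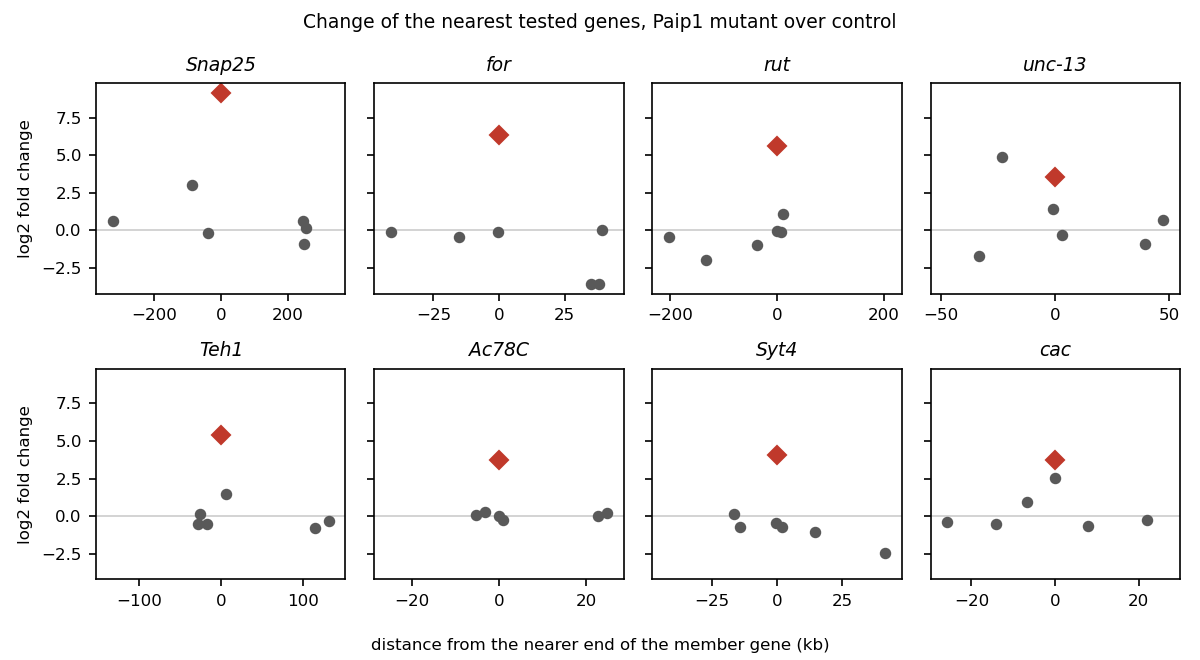
Log2 fold change, Paip1 mutant over control, of the 3 nearest tested genes on each side of the 8 high members (grey points) and of the member itself (red diamond), against the distance from the nearer end of the member gene in kb. All but 1 neighbour, fd102C near unc-13, lie below the member.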

How the data were processed

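RNA was isolated with Trizol and sequenced on an Illumina HiSeq, per the labels' protocols. The deposited expression table names no unit, and its fractional values were taken as TPM made by the authors. They total 919460 and 936038 in the mutant libraries and 995750 and 996531 in the control libraries. With every library brought to a common sum, the median log2 fold change over all tested genes was -0.12, against -0.22 without. TPM holds no read depth, so depth is unknown and precision rests on 2 libraries a group. The authors' deposited comparison holds fold changes as a ratio and as log2, with p-value columns. The submitters' processing notes name FastQC, TopHat, RSEM, DESeq and dm6 and give them no role. Use of strand is not stated, and a value belongs to a gene, not to a transcript.

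Genes reaching 1 TPM in 2 or more libraries (8605) were fitted with limma 3.58.1 (R 4.3.3) on log2(TPM + 1), with a variance trend and a two-sided test (2 residual and 3.27 prior degrees of freedom). Calls took a Benjamini-Hochberg adjusted p under 0.05 over all of them. The fit was also run on simulated data with independent noise and a small share of genes changed. That setting is unlike these libraries, so the run does not bear on the calls given here. Whether replicates are separate collections is not in the labels, and p-values cover the spread of these libraries, which may be technical. Members and lists were chosen with earlier results of these data known. Members averaging 1 TPM or more in a group are given by library; from each other list up to 4 called genes of smallest p are named, and from each marker list the 2 of highest mean. sens, repo, Mhc, ninaE and Appl were added as defining markers, and insc, ple, Pka-C3, Pka-C2 and neighbours after their values were seen. Of 37 members, 36 matched Ensembl annotation 115 (dm6 assembly) by ID and para by symbol. Alternatives were a pseudocount of 0.1, no filter, median-ratio and common-sum scaling, a replicate block, no variance trend and leaving out each library. Python 3.11.15, pandas 2.3.3, numpy 2.4.6 and matplotlib 3.10.9 were used.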

Additional observations from a re-analysis of the deposited data

How the results depend on the processing

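Of the members not called, Syb changed sign under median-ratio scaling (log2 fold change 0.01), Syx1A and Rop without mutant replicate 1 (0.32 and 0.03) and dnc without mutant replicate 2 (-0.06), and Syx1A was called lower without mutant replicate 2 (-0.71). Syt1 was called lower with the replicate block (log2 fold change -0.86). Calls of Snap25, for, rut, unc-13, Teh1, Ac78C, Syt4, cac and sand held in all 10 alternatives. The number of members called lower, 2 as reported, was 1 with no filter and 1 under median-ratio scaling. Of the other synaptic genes, 8 were called lower as reported, 4 with no filter, 5 under median-ratio scaling and 5 with a common sum. Of the other ion channel genes, 7 were called higher as reported and 11 with no filter, and 5 lower as reported, 2 with no filter and 3 under median-ratio scaling. Of the other cAMP and cGMP genes, 1 was called higher as reported and 3 with no filter, and 6 lower as reported and 3 with no filter, under median-ratio scaling or with a common sum. The cause was not tested. Over all tested genes, 1346 were called higher and 2506 lower as reported, 1732 and 1743 under median-ratio scaling and 1507 and 1898 with a common sum. With 1 library left out, 8 to 9 members were called higher and 1 to 3 lower. The ranges were 2 to 4 higher and 0 to 8 lower for other synaptic genes, 3 to 7 and 0 to 3 for other ion channels, 2 to 3 and 0 to 0 for receptors, and 0 to 1 and 1 to 5 for other cAMP and cGMP genes. A group left with 1 library was assumed to vary like the other group. Calls over all tested genes also became fewer in each of these fits.

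The replicate numbers give only 2 pairs. Over the tested genes, deviations of same-numbered libraries correlated at 0.0648. With 2 pairs this cannot settle whether same-numbered libraries share more than a number. With the replicate block 11 members were called higher and 3 lower, 8 and 9 of the other synaptic genes, 7 and 5 of the other ion channels, 5 and 0 of the receptors and 1 and 6 of the other cAMP and cGMP genes. TPM carries no read depth, so no counting error could be given for genes below 1 TPM.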
